A study of Rattus norvegicus with 20 samples.

Results

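The livers described here are those of the rats that received tricresyl phosphate (TCP), an organophosphate ester used as a plasticizer, a flame retardant and an additive of lubricants. They are 15 of the 20 arrays of the study, chosen by the treatment in the labels, with the 5 vehicle arrays set aside and used only for reference. All animals were male Harlan Sprague Dawley rats, and their age is not stated. TCP in corn oil was given once a day by gavage, in 4 doses, at 62.3, 124.5, 248.6, 497.3 or 994.6 mg/kg body weight, with 3 rats at each dose. The controls received corn oil alone, and the liver was taken on day 5. Each array holds RNA from pieces of the left lobe of 1 rat, so the spread between arrays includes that between animals. Each dose was about double the one before, from 0.169 mmol/kg for the lowest to 2.7 mmol/kg for the highest, and they are treated here as dose steps 1 to 5. The question was which transcripts went on changing with dose once TCP was present, apart from any difference between treated and untreated rats. The measure is the slope of the log2 expression value on dose step, in log2 units per doubling of the dose. Because the values were normalized to nearly the same distribution on each array, a slope tells how a gene moved against the mass of other genes.

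The liver meets a foreign compound with enzymes that oxidize it, enzymes that hydrolyse it or join it to glutathione or glucuronic acid, and pumps that move the products to bile or blood. Many of these genes are switched on by the nuclear receptors CAR and PXR, which sense drugs and other chemicals, and by NRF2, which senses electrophiles. The liver also turns cholesterol into bile acids, a path that starts with Cyp7a1, and sends cholesterol itself into bile through a pump made of Abcg5 and Abcg8. These functions are carried by hepatocytes, which make up most of the liver's mass.

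Hepatocyte markers were high, as in liver. All 14 measured members of that list lay above the median gene, with mean log2 levels from 10.2 for Tat to 15.3 for Alb. Of the other cell types a liver piece holds, 12 of 12 macrophage markers and 11 of 12 sinusoidal endothelial markers lay above the median gene, against 2 of 13 lymphocyte markers and 0 of 8 neutrophil markers. One array stood apart from the other treated ones. On the first principal component of the 15 arrays, 22.1% of the variance, the coordinate of replicate 1 of 994.6 mg/kg was 32.8, while those of the 14 remaining arrays ran from -13.0 to 12.4. A second array differed in RNA quality: for GAPDH, a control transcript probed at both of its ends, the log2 value at the 3' end exceeded that at the 5' end by 2.58 in replicate 2 of 124.5 mg/kg, against 0.612 to 1.11 in the other treated arrays and 1.13 to 1.56 in control. Results without the first of these arrays, and some without both, are given below. The slope of the GAPDH difference itself was -0.10 per doubling (two-sided permutation p = 0.283 over 15 arrays, adjusted over 2 transcripts 0.566), and -0.05 without that array (adjusted p = 0.145). For beta-actin the slope was -0.03 (two-sided permutation p = 0.619).

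Among the treated livers, a small set of genes rose or fell with dose. The carboxylesterase Ces2c, the conjugate pump Abcc3 and the endosomal protein Snx10 rose most steeply, by 0.55 to 0.58 per doubling. The taurine transporter Slc6a6 and both parts of the sterol pump, Abcg5 and Abcg8, fell by 0.39 to 0.48 per doubling. In all, 31 of 14217 genes passed the test (limma, Benjamini-Hochberg adjusted p under 0.05), or 0.218%, with 22 higher (0.155%) and 9 lower (0.0633%) at higher doses. At an unadjusted p under 0.05 there were 1505 genes, or 10.6%, of which 729 (5.13%) had a positive and 776 (5.46%) a negative slope. Of the 31 genes, 28 changed by at least 1.5-fold over the 4 doublings and 12 by at least 2-fold. The 5 treated means were in strict dose order for 20 of them, against 3.33% of all genes. For all 31 the 3 arrays of 994.6 mg/kg did not overlap those of 62.3 mg/kg, against 12.7% of all genes. Since the same arrays chose these genes, the dose order and the lack of overlap are both descriptions. The largest step between neighbouring means came between 62.3 and 124.5 mg/kg in 1 gene, at the next step in 7, at the one after in 11 and between 497.3 and 994.6 mg/kg in 12.

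The count moved with single arrays. It was 15 (0.106%) without replicate 1 of 994.6 mg/kg, 15 without replicate 3 of that dose and 68 without replicate 3 of 62.3 mg/kg. Of the 31 genes, 12 were also called without replicate 1 of 994.6 mg/kg. Among the 3 arrays of that dose, this replicate lay farthest in the trend direction in 19 of the 31 genes. With 1 array left out at a time, 11 genes kept their call each time. Of these, 9 rose (Ces2c, Abcc3, Htatip2, App, Sgpl1, Casp4, Rhbdf2, Snx10 and Krt18) and 2 fell (Slc6a6 and Syne1). Genes lay close together at the threshold: just inside were Ephx1, Ak4 and Anxa7 (adjusted p = 0.0471), and just outside the complement protease C1s (0.0507) and the glutathione transferase Gstt3 (0.0516). After quantile normalization 101 genes were called (59 rose and 42 fell), and centring each array on its median gave 103, 58 higher and 45 lower, so the share that rose was smaller under both.

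**Figure D1:**
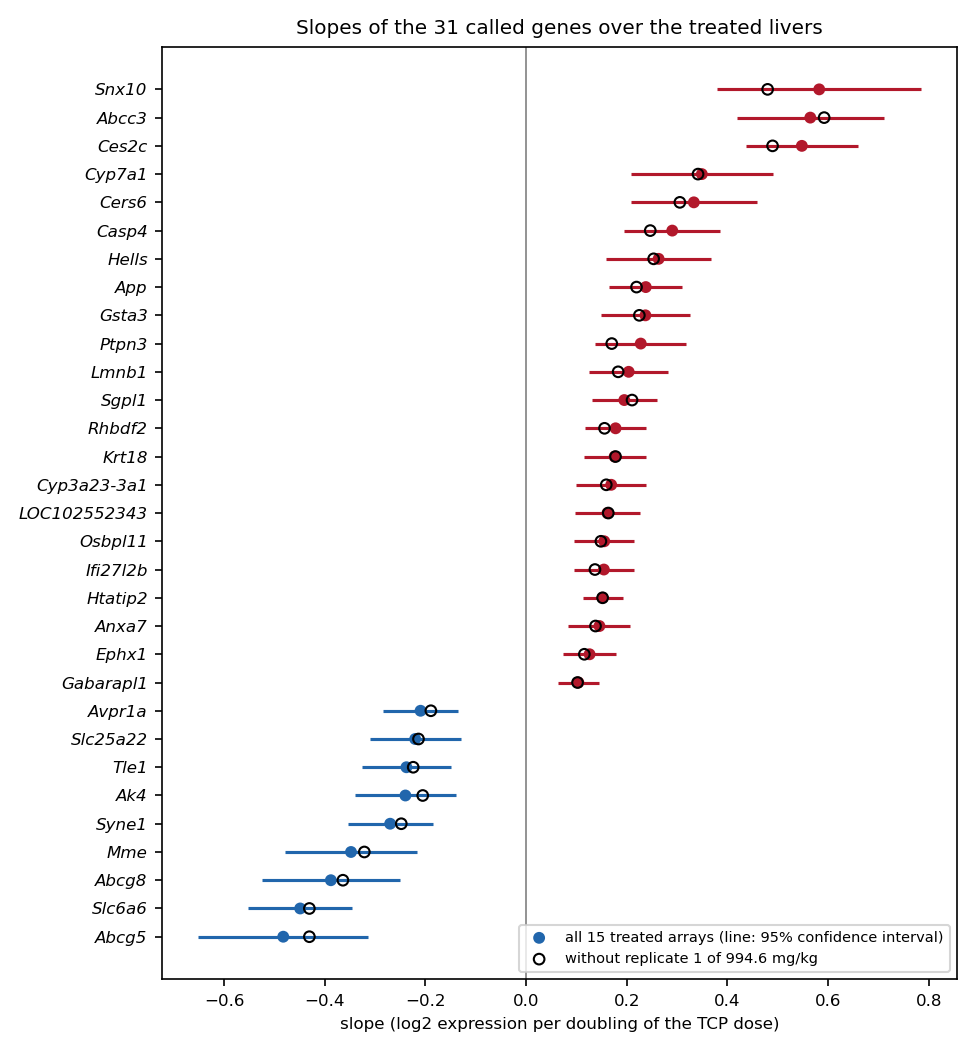
Slope of log2 expression per doubling of the TCP dose for the 31 called genes, over the 15 treated arrays (filled points, with 95% confidence intervals) and without replicate 1 of 994.6 mg/kg (open circles). Snx10, Abcc3 and Ces2c have the steepest rise and Abcg5, Slc6a6 and Abcg8 the steepest fall, and each open circle stays on its gene's side of 0.

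Stretches of sequence upstream of called genes were searched for short motifs. They come from RefSeq (build GRCr8), whose promoter table held an entry for 26 of the 31 genes. Ces2c and Cyp3a23-3a1 were chosen as called members of the list of CAR and PXR targets, and are shown as the 250 bases before the start site, 5' to 3' on the strand of the gene. In Ces2c (chr1:270376951-270377200, plus strand) the capitals mark the nuclear receptor motif AGTTCA, here on the opposite strand, which ends at position -120 from the start site. It was searched on both strands, and 12.2% of 33469 promoter windows of that length held it. In Cyp3a23-3a1 (chr12:14398804-14399053, minus strand) the capitals mark a pair of such motifs 3 bases apart, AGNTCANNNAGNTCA, again on the opposite strand, at -144 to -130. This pair was in 20 windows (0.0598%), and the window of Cyp3a2 held one as well. Of the 23 measured CAR and PXR targets 20 had a window, and the other 18, Ces2c and Ephx1 among them, held no such pair.
Ces2c: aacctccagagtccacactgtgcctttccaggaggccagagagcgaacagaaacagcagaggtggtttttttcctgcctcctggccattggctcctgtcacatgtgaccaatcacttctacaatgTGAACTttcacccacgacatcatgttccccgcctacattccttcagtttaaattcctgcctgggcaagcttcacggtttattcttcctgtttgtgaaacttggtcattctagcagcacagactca
Cyp3a23-3a1: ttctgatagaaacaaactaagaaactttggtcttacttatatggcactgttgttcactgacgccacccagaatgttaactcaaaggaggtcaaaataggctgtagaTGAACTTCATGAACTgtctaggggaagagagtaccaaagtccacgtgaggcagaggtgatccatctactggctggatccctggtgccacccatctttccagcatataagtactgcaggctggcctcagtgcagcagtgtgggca

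Abcg5 and Abcg8 lie head to head and fell together, so the 205 bases between their start sites are shown (chr6:15717731-15717935, plus strand, the strand of Abcg5). The capitals mark 2 matches to the GATA box AGATAA, which 8.35% of 33469 windows of that length held, and 1 match to the TATA box TATAAA, which 10.7% held. Both motifs were searched on both strands. A match is a string of letters and no measured binding site.
Abcg5 and Abcg8: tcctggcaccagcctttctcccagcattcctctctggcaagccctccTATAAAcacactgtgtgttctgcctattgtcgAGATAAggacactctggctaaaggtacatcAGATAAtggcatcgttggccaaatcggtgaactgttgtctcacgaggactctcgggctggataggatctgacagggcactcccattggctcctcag

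Among genes of foreign compound metabolism Ces2c, which hydrolyses esters and amides of drugs, had the lowest adjusted p, and Abcc3 had a like slope. The log2 values of Ces2c were 9.32, 9.93 and 9.86 at 62.3 mg/kg, 9.76, 9.76 and 9.89 at 124.5 mg/kg, 10.56, 10.51 and 10.51 at 248.6 mg/kg, 10.90, 11.17 and 10.92 at 497.3 mg/kg and 12.37, 11.23 and 11.93 at 994.6 mg/kg. The controls lay between 8.76 and 9.04. The arrays of 62.3 and 124.5 mg/kg overlapped, and from there on each dose lay above the one before it without overlap. The slope was 0.55 ± 0.05 (SE, n = 15 arrays, limma adjusted p = 9.79e-05), or 4.57-fold over the 4 doublings. Ces2c was the one gene that also passed over the 12 arrays of the 4 lower doses, where its slope was 0.46 ± 0.05 (limma adjusted p = 0.0033).

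Abcc3 exports conjugated drugs and bile acids from the hepatocyte to blood. Its values were 7.22, 7.63 and 7.75 at 62.3 mg/kg, 7.16, 7.34 and 8.20 at 124.5 mg/kg, 8.70, 8.19 and 9.27 at 248.6 mg/kg, 8.75, 9.40 and 9.32 at 497.3 mg/kg and 9.31, 9.48 and 9.89 at 994.6 mg/kg, with controls at 6.36 to 6.92. Each dose overlapped the one next to it, all arrays of the 3 higher doses but 1 lay above all of the 2 lower ones, and the largest step between means was that from 124.5 mg/kg (7.57) to 248.6 mg/kg (8.72). Its slope was 0.56 ± 0.07 (SE, adjusted p = 0.00104), a 4.79-fold rise over the 4 doublings. Gsta3, an alpha-class glutathione transferase, ran from 8.69 to 9.03 at the lowest dose and 9.34 to 9.95 at the highest, with a slope of 0.24 ± 0.04 (SE, adjusted p = 0.0218). Its 5 controls lay at 7.55 to 8.59, below all treated arrays, and 0.61 below the line drawn back from the treated arrays (unadjusted p = 0.00634, not called). Without replicate 1 of 994.6 mg/kg the adjusted p of Gsta3 was 0.0584, and without replicate 3 of that dose it was also over the threshold (0.0858, the highest with 1 array left out).

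Cyp3a23-3a1, a cytochrome P450 that oxidizes many drugs, started high, with values of 13.42, 13.34 and 13.18 at 62.3 mg/kg and 14.21, 13.75 and 14.25 at 994.6 mg/kg. The controls, at 12.52 to 13.56, overlapped the lowest dose. Its slope was 0.17 ± 0.03 (SE, adjusted p = 0.0394). Ephx1, the microsomal epoxide hydrolase, ran from 13.14 to 13.30 at 62.3 mg/kg and 13.66 to 13.75 at 994.6 mg/kg, with a slope of 0.13 ± 0.03 (SE, adjusted p = 0.0471). Both calls were lost in most fits with 1 array left out, at an adjusted p of up to 0.126 for Cyp3a23-3a1 and 0.12 for Ephx1. Probe sets of gene families with near-identical members, such as Cyp3a, Ces2, Gsta and the globins, can also pick up related transcripts.

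Of 23 measured CAR and PXR targets, 4 were called, all higher, against 0.155% of all genes: Ces2c, Abcc3, Cyp3a23-3a1 and Ephx1. At an unadjusted p under 0.05 there were 8 with a positive slope, against 5.13% of all genes, and 1 with a negative slope, and the median slope of the list was 0.06 beside -0.00099 over all genes. The number called was 2 without replicate 1 of 994.6 mg/kg and 2 with the GAPDH difference as a covariate. Of all 14217 genes, 10 and 26 were called higher in these fits. Ephx1 was the called member among 23 NRF2 targets, against 0.155% of all genes called higher. Of these targets 19 had a positive slope (median 0.08), as had 6910 of all 14217 genes. No NRF2 target was called by limma without replicate 1 of 994.6 mg/kg, and the median was then 0.03. A positive slope at an unadjusted p under 0.05 was found in 5, against 4.71% of all genes. Nqo1, the quinone reductase of that list, had a slope of 0.24 and did not pass (adjusted p = 0.0691). Among 19 glutathione transferases Gsta3 was called, against 0.155% of all genes called higher. In this list 4 members had a positive slope at an unadjusted p under 0.05, against 5.13% of all genes. Of 21 esterases and lipid hydrolases Ces2c was called, against 0.155% of all genes called higher. In this list 14 slopes were negative, 4 of them at an unadjusted p under 0.05, against 5.46% of all genes. The hepatic lipase Lipc (slope -0.11, adjusted p = 0.064) and Aadac (-0.14, adjusted p = 0.0844), an arylacetamide deacetylase, had negative slopes that did not pass.

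**Figure D2:**
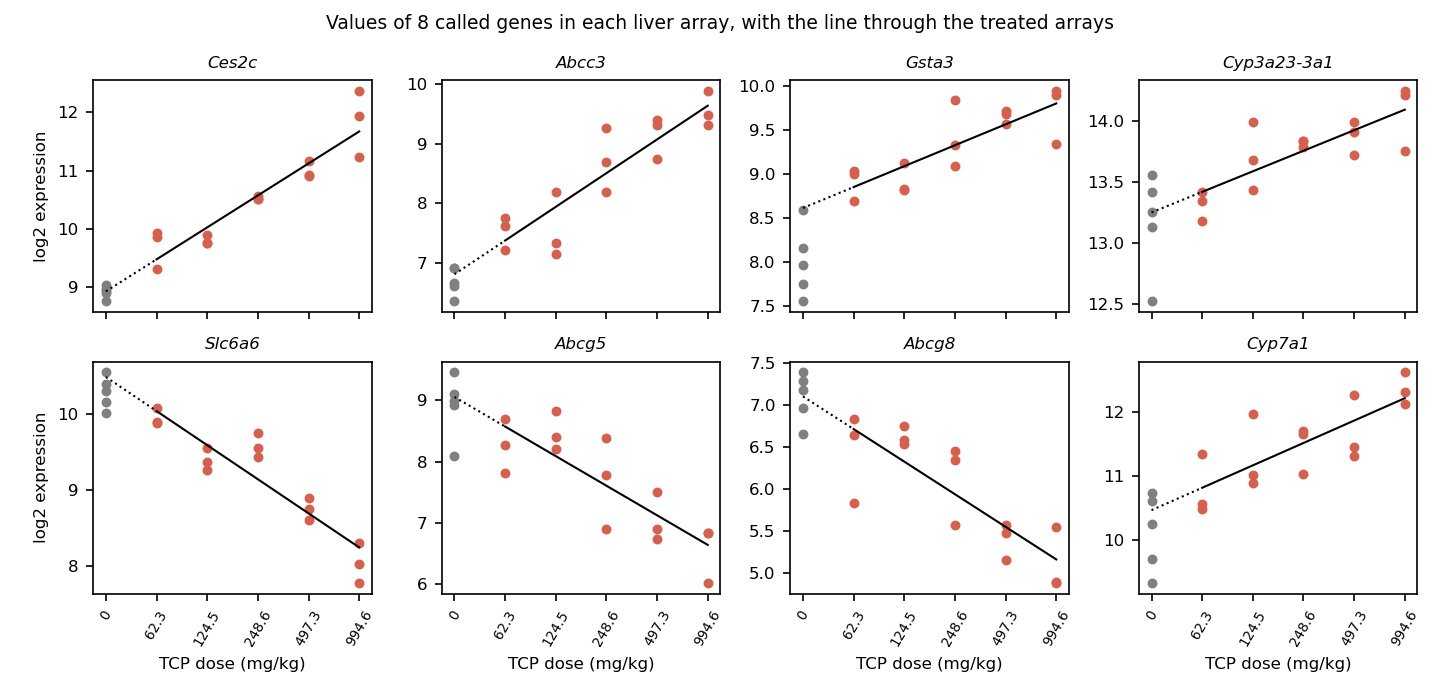
Log2 expression (vertical axes) of 8 called genes in each array against the TCP dose in mg/kg (horizontal axes, evenly spaced dose steps), with the 15 treated arrays in red, the 5 controls in grey and the least-squares line through the treated arrays, dotted where it is drawn back to dose step 0. The controls of Gsta3 lie below the dotted line's end, and those of Ces2c lie around it.

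Genes of sterol and bile acid handling moved in both directions. Slc6a6 takes up taurine, with which the rat liver conjugates most of its bile acids. Its values were 9.88, 9.90 and 10.08 at 62.3 mg/kg, 9.55, 9.26 and 9.37 at 124.5 mg/kg, 9.43, 9.55 and 9.75 at 248.6 mg/kg, 8.60, 8.89 and 8.75 at 497.3 mg/kg and 8.02, 8.30 and 7.77 at 994.6 mg/kg, with controls at 10.02 to 10.55. The lowest dose lay above the others, 124.5 and 248.6 mg/kg overlapped, and each of the higher doses lay below those without overlap. The slope was -0.45 ± 0.05 (SE, adjusted p = 0.000294). Another probe set of Slc6a6 had a slope of -0.26.

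Abcg5 and Abcg8 are the partners in the pump that sends cholesterol and plant sterols into bile. Abcg5 lay at 8.27, 8.70 and 7.82 at 62.3 mg/kg, 8.40, 8.83 and 8.21 at 124.5 mg/kg, 6.90, 8.39 and 7.79 at 248.6 mg/kg, 6.90, 7.50 and 6.74 at 497.3 mg/kg and 6.02, 6.84 and 6.84 at 994.6 mg/kg. Abcg8 lay at 6.64, 6.84 and 5.83, at 6.58, 6.75 and 6.54, at 5.57, 6.45 and 6.35, at 5.48, 5.57 and 5.16 and at 4.88, 4.89 and 5.55 at the same doses. For both genes the arrays of the lower 2 doses overlapped, and those of 497.3 and 994.6 mg/kg lay below them. The slopes were -0.48 ± 0.08 for Abcg5 (SE, adjusted p = 0.0141) and -0.39 ± 0.07 for Abcg8 (SE, adjusted p = 0.0151), or falls of 3.81-fold and 2.93-fold over the 4 doublings. Without replicate 1 of 994.6 mg/kg the slopes were -0.43 and -0.36, with adjusted p-values of 0.0504 and 0.0514, so both calls ended. With replicate 2 of 124.5 mg/kg left out as well, Abcg5 was called (slope -0.40, adjusted p = 0.0399). Abcg8 was not called in that fit (slope -0.35, adjusted p = 0.0571). The call of Abcg8 also ended without replicate 2 of 994.6 mg/kg (adjusted p of up to 0.0543).

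Cyp7a1, whose hydroxylation of cholesterol opens and paces the bile acid path, rose. Its values were 11.34, 10.48 and 10.57 at 62.3 mg/kg, 10.90, 11.97 and 11.02 at 124.5 mg/kg, 11.70, 11.65 and 11.04 at 248.6 mg/kg, 11.32, 11.45 and 12.26 at 497.3 mg/kg and 12.31, 12.13 and 12.62 at 994.6 mg/kg. The 4 lower doses overlapped one another, and the highest dose overlapped 497.3 mg/kg alone. Its slope was 0.35 ± 0.07 (SE, adjusted p = 0.0345). The call ended on leaving out any 1 of 7 arrays (replicates 2 and 3 of 62.3 mg/kg, 1 and 3 of 124.5 mg/kg, and each of 994.6 mg/kg), at an adjusted p of up to 0.118. With replicate 1 of 994.6 mg/kg and replicate 2 of 124.5 mg/kg both left out, Cyp7a1 was called (slope 0.37, adjusted p = 0.0317). Osbpl11, an oxysterol-binding-protein relative, rose by 0.16 ± 0.03 per doubling (SE, adjusted p = 0.0262). Of the list for making bile acids and moving them into bile, 24 genes were measured, of which 2 were called higher (Abcc3 and Cyp7a1) and 3 lower (Abcg5, Abcg8 and Slc6a6), against 0.155% and 0.0633% of all genes, with a median slope of -0.01. Leaving out replicate 1 of 994.6 mg/kg left 1 called higher (Abcc3) and 1 lower (Slc6a6), against 10 and 5 of all 14217 genes. With replicate 2 of 124.5 mg/kg left out as well, 3 were called higher and 2 lower, against 21 and 9 of all genes. Cyp8b1, which sets the share of cholic acid, had a slope of 0.13 (adjusted p = 0.269), and the phospholipid pump Abcb4 had one of -0.13 (adjusted p = 0.139). Of 19 genes of cholesterol synthesis and uptake none was called by limma, and 1 had an unadjusted p under 0.05.

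Snx10, a sorting nexin of endosomes, had the steepest slope of the called genes over the 15 arrays. Its values were 6.48, 6.49 and 5.28 at 62.3 mg/kg, 6.52, 6.96 and 6.68 at 124.5 mg/kg, 7.10, 6.38 and 6.94 at 248.6 mg/kg, 7.27, 6.67 and 8.05 at 497.3 mg/kg and 9.52, 8.46 and 8.08 at 994.6 mg/kg. The arrays of 124.5, 248.6 and 497.3 mg/kg overlapped, and those of 62.3 mg/kg overlapped 248.6 mg/kg alone. Those of the highest dose lay above all others, replicate 3 by little and replicate 1 farthest. The slope was 0.58 ± 0.10 (SE, adjusted p = 0.0141) and 0.48 without that array (adjusted p = 0.0257), below the slopes of Abcc3 (0.59) and Ces2c (0.49) without it. Another probe set of Snx10 had a slope of 0.30. Its controls spread widely, from 4.67 to 7.04. Over the 15 arrays the genes most like Snx10 were the tyrosine phosphatase Ptpn3 (r = 0.923), the ribosomal protein gene Rps16 (r = 0.905, slope 0.05, not called) and App (r = 0.872), which is a description over arrays that share their doses.

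Other genes that rose had varied roles. App, the amyloid precursor protein, ran from 11.12 to 11.81 at 62.3 mg/kg and 12.39 to 12.68 at 994.6 mg/kg, with a slope of 0.24 ± 0.03 (SE, adjusted p = 0.0061). Casp4, an inflammatory caspase that responds to bacterial lipopolysaccharide in the cytosol, had arrays at 7.91 to 8.40 at the lowest dose and at 8.72 to 9.69 at the highest. Its slope was 0.29 ± 0.05 (SE, adjusted p = 0.0107). Rhbdf2, which guides the sheddase ADAM17 to the cell surface, rose by 0.18 per doubling, and Gabarapl1, of the ATG8 family of autophagy proteins, by 0.10. Anxa7, an annexin, rose by 0.15, as did Ifi27l2b, named for interferon induction, and Ptpn3 rose by 0.23. With 1 array left out at a time, Anxa7 lost its call in 13 of 15 fits. Gabarapl1 and Ptpn3 each lost theirs in 5 and Ifi27l2b in 4. The mean of Anxa7 was 8.40 at 497.3 mg/kg and 8.29 at 994.6 mg/kg, and another probe set of Anxa7 had a slope of 0.06. Htatip2, an oxidoreductase-like protein, rose by 0.15 ± 0.02 (SE, adjusted p = 0.00104). The arrays of Htatip2 were at 8.59 to 8.76, 8.73 to 8.86, 8.86 to 9.04, 9.02 to 9.27 and 9.23 to 9.28 from the lowest to the highest dose, with means in dose order and neighbouring doses touching or overlapping. Htatip2, Rhbdf2, Osbpl11, Ifi27l2b, Gabarapl1 and Anxa7, with 1 locus without a gene name (slope 0.16), fell outside the rule for named genes and are named because they complete the 31.

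Cers6 and Sgpl1, enzymes of sphingolipid metabolism, rose. Cers6, a ceramide synthase, had values of 7.63, 8.38 and 7.97 at 62.3 mg/kg, 8.48, 8.93 and 8.58 at 497.3 mg/kg and 9.40, 9.56 and 9.02 at 994.6 mg/kg, with 7.71 to 8.43 between. The 3 lower doses overlapped the controls (7.69 to 8.32), and the rise lay in the 2 higher doses. Its slope was 0.33 ± 0.06 (SE, adjusted p = 0.0229), and it bent upward with dose (curvature unadjusted p = 0.00279, not called). Sgpl1, the lyase that ends the path by cleaving sphingosine phosphate, had a slope of 0.20 ± 0.03 (SE, adjusted p = 0.0107), with arrays at 7.64 to 7.88 at 62.3 mg/kg and 8.23 to 8.56 at 994.6 mg/kg. The call of Cers6 ended without replicate 1 of 62.3 mg/kg or any 1 array of 994.6 mg/kg (adjusted p of up to 0.0838).

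Lmnb1, Hells, Syne1 and Tle1 encode proteins of the nucleus, and they moved both ways. Lmnb1, lamin B1 of the nuclear lamina, rose by 0.20 per doubling (adjusted p = 0.0277) and Hells, a chromatin-remodelling helicase, by 0.26 (adjusted p = 0.0306). The 3 arrays of Hells at 994.6 mg/kg lay at 8.32, 8.32 and 8.34. Syne1, a nesprin that ties the nucleus to the cytoskeleton, fell by 0.27 per doubling (adjusted p = 0.0074), from 8.36 to 9.14 at the lowest dose to 7.52 to 7.88 at the highest. The 3 other probe sets of Syne1 had weaker slopes, from -0.14 to -0.01, and the 2 others of Lmnb1 had slopes of 0.01 and 0.12. Tle1, a Groucho-type corepressor, fell by 0.24 per doubling (adjusted p = 0.0229). Each of Lmnb1, Hells and Tle1 lost its call on leaving out at least 4 of the 15 arrays 1 at a time, with adjusted p-values of up to 0.0957, 0.104 and 0.0882.

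The other genes that fell were Mme, Avpr1a, Slc25a22 and Ak4. Mme, the membrane peptidase neprilysin, lay at 6.83, 6.74 and 6.78 at 62.3 mg/kg and 5.43, 5.51 and 5.69 at 994.6 mg/kg, with a slope of -0.35 ± 0.06 (SE, adjusted p = 0.0229). Its controls ran from 6.41 to 8.05, wider than any treated group. Avpr1a, the hepatic vasopressin receptor, fell by 0.21 per doubling (adjusted p = 0.0164), and Slc25a22, a mitochondrial glutamate carrier, by 0.22 (adjusted p = 0.0393). For both, controls lay below the line drawn back from the treated arrays, by 0.42 and 0.40 (unadjusted p = 0.00697 and 0.0228, not called). Ak4, a mitochondrial adenylate kinase, fell by 0.24 (adjusted p = 0.0471), through the arrays of 994.6 mg/kg at 10.21 to 10.51, since the lower doses lay at 11.01 to 11.71. A second probe set of Ak4 had a slope of 0.02. Without replicate 1 of 994.6 mg/kg none of these calls held, and Avpr1a was then at an adjusted p of 0.052 and Mme at 0.0615, while that of Ak4 reached 0.148 over the arrays left out. With replicate 2 of 124.5 mg/kg left out as well, Avpr1a (adjusted p = 0.0328) and Mme (0.0399) were called. Slc25a22 (0.0874) and Ak4 (0.0732) were not called in that fit. Krt18, a keratin of hepatocytes and bile duct cells, rose by 0.18 ± 0.03 (SE, adjusted p = 0.0141), from 11.81 to 12.03 at the lowest dose to 12.46 to 12.76 at the highest.

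The slopes were then taken over the 4 lower doses alone. Over those 12 arrays 1 gene was called, Ces2c (0.00703% of genes), and 954 genes (6.71%) had an unadjusted p under 0.05. The next adjusted p was 0.109, shared by Abcc3 (slope 0.60 ± 0.10, SE), Slc6a6 (-0.34 ± 0.06, SE) and Htatip2 (0.17 ± 0.03, SE), among others. All 31 genes had the same sign of slope as over 5 doses, and 30 had an unadjusted p under 0.05, Ak4 being the exception. As the 12 arrays are part of the 15 that chose the genes, this is a description. The slope was smaller over the 4 lower doses in 22 of the 31 genes. Abcc3 and Gsta3 had larger slopes there (0.60 and 0.27), and Snx10 (0.38), Cers6 (0.20) and Ak4 (-0.10) had smaller ones. The count of called genes was 2 without replicate 1 of 62.3 mg/kg and 6 without replicate 3 of 248.6 mg/kg.

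**Figure D3:**
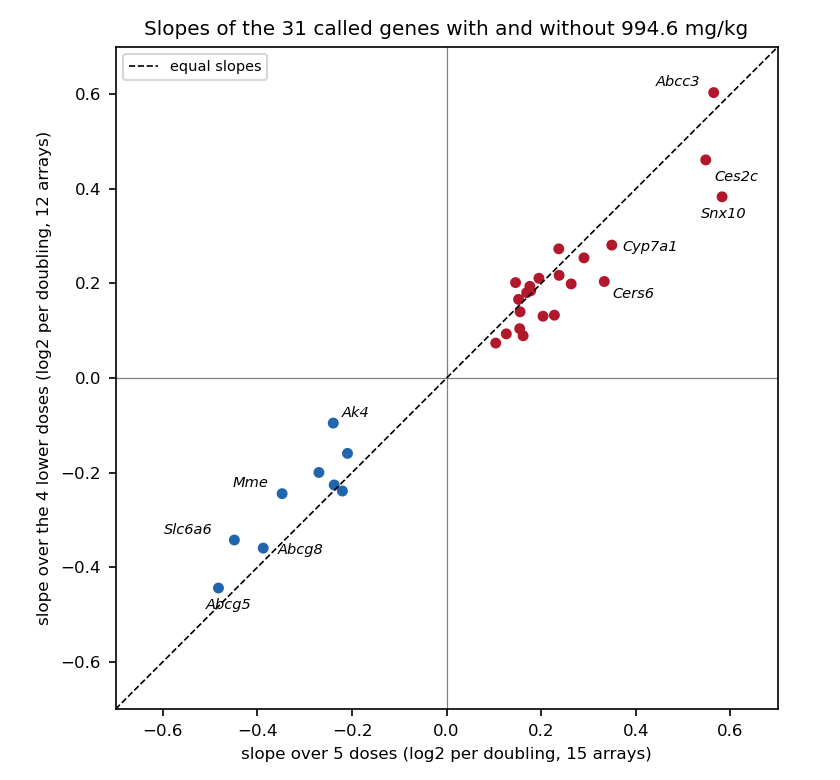
Slope over the 12 arrays of the 4 lower doses (vertical axis) against the slope over all 15 treated arrays (horizontal axis), both in log2 units per doubling, for the 31 called genes (red higher, blue lower with dose), with a dashed line where both are equal. All 31 points have the same sign on both axes, and 22 lie nearer to 0 on the vertical axis.

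Departures from a straight line were tested next. For curvature, the quadratic term over the 15 treated arrays, no gene was called by limma (0%), and 668 genes (4.7%) had an unadjusted p under 0.05. Of the 31 genes called for slope 9 had such a p, Ces2c and Slc6a6 among them. In 25 of the 31 the curvature had the sign of the slope, and both counts are descriptions over the arrays that chose the genes. Over all genes the lowest adjusted p, 0.112, belonged to 3 genes, which are named because their p-values were lowest. Isg15, a ubiquitin-like protein induced by interferon, lay between 8.22 and 9.22 at the 4 lower doses and at 9.84, 9.86 and 9.75 at 994.6 mg/kg. The clock repressor Nr1d2 lay between 8.03 and 8.79 and then at 9.80, 9.36 and 9.64. Ccdc141, a coiled-coil protein, lay between 5.35 and 6.35 and then at 4.53, 4.89 and 5.01. In all 3 the arrays of 994.6 mg/kg stood clear of the others. They were called with quantile normalization (adjusted p = 0.0429), and Isg15 was called without replicate 3 of 62.3 mg/kg. Jun, an immediate early transcription factor, had a like shape, at 8.12 to 9.34 at the 4 lower doses and 10.50 to 11.11 at the highest, and its slope of 0.42 did not pass (adjusted p = 0.12).

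The controls were then set against the line drawn back from the treated arrays to dose step 0. No gene was called by limma for this offset (0%), and 367 genes (2.58%) had an unadjusted p under 0.05. The lowest p-values were those of Cish, a cytokine signal inhibitor, and Ugt2b1, a glucuronosyltransferase. Ugt2b1 lay at 12.20 to 12.89 in control and at 12.90 to 13.86 in the treated arrays, so that every treated array was above every control. The controls lay 0.67 below the line (adjusted p = 0.999). Its slope among treated livers was 0.11 (adjusted p = 0.185). With the dose in mg/kg in place of dose step its offset was called (adjusted p = 0.0202). Cish lay at 8.02 to 8.59 in control and at 8.28 to 8.92 at 994.6 mg/kg, with 11 of the other 12 treated arrays between 6.33 and 7.70 and 1 at 8.82. Of the 31 called genes 25 had a mean at 62.3 mg/kg beyond that of control in the direction of the trend, a count not made over all genes. An unadjusted p under 0.05 for the offset was found in 7 of the 31, against 2.58% of all genes. All 31 were also called with the controls added to the line. That fit called 920 genes, 554 of them higher.

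**Figure D4:**
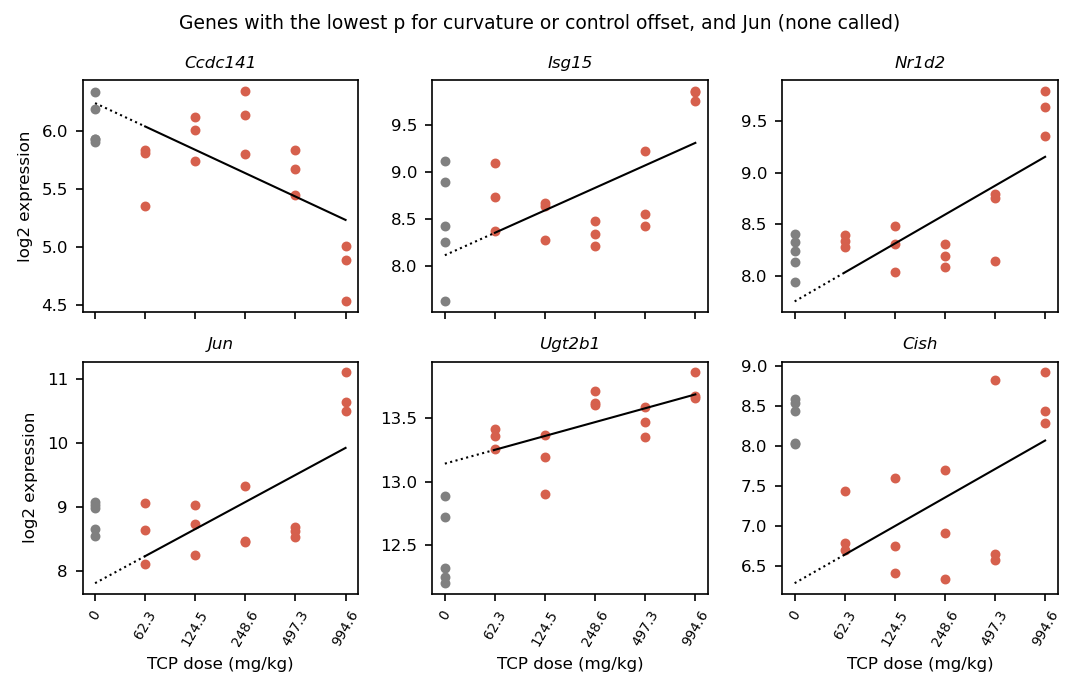
Log2 expression (vertical axes) of 6 genes against the TCP dose in mg/kg (horizontal axes, evenly spaced dose steps), drawn as in the plot of 8 called genes: Ccdc141, Isg15 and Nr1d2 with the lowest p for curvature, Jun, and Ugt2b1 and Cish with the lowest p for the control offset. In the first 4 panels the arrays of 994.6 mg/kg stand clear of the other treated arrays, and in the panel of Ugt2b1 all controls lie below all treated arrays.

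Several gene lists leaned one way without a called member. Of 29 measured interferon response genes, 28 had a positive slope and 16 an unadjusted p under 0.05, against 5.13% of all genes. The median slope was 0.13 beside -0.00099 over all genes, and no member was called by limma. The largest slopes were those of the chemokine Cxcl10 (0.32, adjusted p = 0.159) and the deconjugase Usp18 (0.29, adjusted p = 0.112). The mean of the list relative to control was 0.63 to 0.86 in the 3 arrays of 994.6 mg/kg and -0.22 to 0.55 in the other treated arrays, so the highest dose stood apart. Without replicate 1 of that dose 10 members had an unadjusted p under 0.05 with a positive slope, against 4.71% of all genes (median 0.09), and over the 4 lower doses 2 did, against 3.74% (median 0.03). Of 30 proteasome subunits 29 had a positive slope, with a median of 0.04. An unadjusted p under 0.05 was found in 12 of these, against 5.13% of all genes. Without replicate 1 of 994.6 mg/kg the 12 became 7, against 4.71% of all genes.

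In the list of the unfolded protein response and the integrated stress response, 25 of 30 genes had a positive slope and 10 an unadjusted p under 0.05 with it (5.13% of all genes did), while 1 had a negative slope at such a p. The 10 became 7 without replicate 1 of 994.6 mg/kg, against 4.71% of all genes. Those nearest to the threshold were the stress transcription factor Atf3 (0.41, adjusted p = 0.0553) and the endoplasmic reticulum factor Manf (0.12, adjusted p = 0.0592). Of 29 acute phase and inflammation genes 10 had a positive slope at an unadjusted p under 0.05 and none a negative one. The shares over all genes were 5.13% and 5.46%, and the median of the list was 0.04. When replicate 1 of 994.6 mg/kg was left out, 7 had a positive and 2 a negative slope at such a p. In that fit 670 and 769 of all 14217 genes did, and the median of the list was 0.02. Lcn2 of that list had a slope of 0.52 (adjusted p = 0.327), was at 11.38 in that array and had a slope of 0.28 without it. The opposite lean was seen for the urea cycle and amino acid breakdown, where 23 of 29 genes had a negative slope and 16 an unadjusted p under 0.05 with it, against 5.46% of all genes. Cbs (-0.14, adjusted p = 0.0727) and Prodh (-0.14, adjusted p = 0.0742), which break down homocysteine and proline, were nearest to the threshold, and the median was -0.07. Clock genes went both ways: Nr1d1 (0.44, adjusted p = 0.0925) and Dbp (0.32, adjusted p = 0.098) had positive slopes, and Usp2 (-0.43, adjusted p = 0.112) a negative one. The hour at which each rat was sampled is not stated in the labels. The cell cycle inhibitor Cdkn1a was among the genes near the threshold (-0.50, adjusted p = 0.0553), and the lipid phosphatase Lpin1 had a slope of -0.49 (adjusted p = 0.159).

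**Figure D5:**
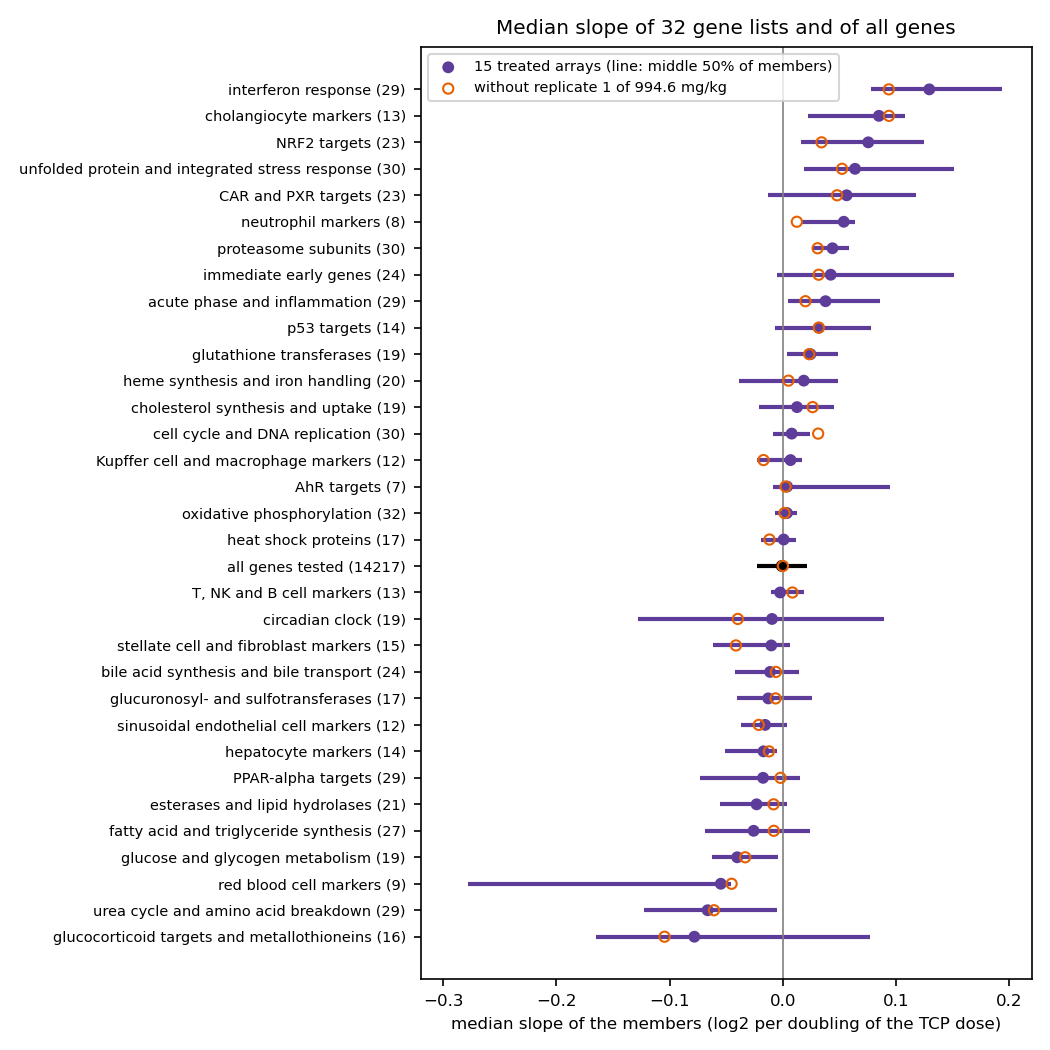
Median slope (filled points, log2 units per doubling) and middle 50% of slopes (lines) over the measured members, whose number stands in brackets, of each of 32 gene lists and of all genes (black), with the median without replicate 1 of 994.6 mg/kg as open circles. The interferon response has the highest median over the 15 arrays, 0.13, and without this array its median and that of the cholangiocyte markers are both 0.09.

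Markers of other cell types were read beside these results. Of 14 hepatocyte markers 13 had a negative slope, with a median of -0.02, and none was called. At an unadjusted p under 0.05 there were 4 (Apoa1, Cps1, Hnf4a and Cyp2e1), against 5.46% of all genes. Without replicate 1 of 994.6 mg/kg there were 3, against 769 of all 14217 genes. Of 9 red blood cell markers 8 had a negative slope and 4 an unadjusted p under 0.05 with it (5.46% of all genes did), among them the globin genes Hbb (-0.29, adjusted p = 0.098) and Hba-a3 (-0.28, adjusted p = 0.0843) and the erythroid heme enzyme Alas2 (-0.29, adjusted p = 0.0758). The mean of that list relative to control was -0.19 to -0.12 at 62.3 mg/kg, -0.28 to -0.17 at 124.5 mg/kg, -0.36 to -0.27 at 248.6 mg/kg, -0.44 to -0.27 at 497.3 mg/kg and -1.06 to -0.45 at 994.6 mg/kg, where replicate 1 was the lowest. Without that array Alas2 was called (slope -0.18, adjusted p = 0.0257), and the slopes of Hbb and Hba-a3 were both -0.18 (adjusted p = 0.0514 and 0.052). In these bulk samples fewer cells of a type and less RNA per cell cannot be told apart.

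Of 13 cholangiocyte markers, genes of bile duct cells, 12 had a positive slope, with a median of 0.08. Krt18, which hepatocytes also express, was called, against 0.155% of all genes called higher. Over the 4 lower doses 8 of the 13 had a positive slope at an unadjusted p under 0.05 (3.74% of all genes did), and the mean of the list relative to control was 0.07 to 0.69 at 497.3 mg/kg but -0.05 to 0.29 at 994.6 mg/kg. Epcam, a surface marker of bile duct cells, had a slope of 0.15 over 5 doses (adjusted p = 0.0876). Neutrophil markers were low, at mean log2 levels of 4.54 to 7.39, and 2 of 8 had a positive slope at an unadjusted p under 0.05, against 5.13% of all genes. None of the 8 did without replicate 1 of 994.6 mg/kg, and their median of 0.05 became 0.01. Macrophage, lymphocyte, stellate and endothelial marker lists had medians between -0.02 and 0.01, and between -0.04 and 0.01 without that array. The part of these cell types in the slopes of other genes was not tested.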

How the data were processed

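Liver RNA of 20 rats was measured on 1-colour Affymetrix arrays. The authors deposited log2 expression values. According to the submitters' processing notes they were computed by RMA, whose version is not stated. RMA corrects background, normalizes quantiles and summarizes probes, so slopes are relative to the bulk of genes. The labels do not say which arrays were normalized as 1 set. The values ran from 2.74 to 15.4, with array medians of 6.31 to 6.41. Precision is limited by how many arrays there are, and signal over background was not used here.

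Of 31042 probe sets other than controls, 20826 carried a single gene symbol, 436 carried several and 9780 carried none in the annotation. Each of 14217 genes was read from 1 probe set, that of the highest mean across 20 arrays. No filter on low values was applied.

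The slope on dose step was fitted to the 15 treated arrays with limma 3.58.1 (lmFit and eBayes) in R 4.3.3, with 13 residual and 4.55 prior degrees of freedom. The same was done over the 12 arrays of the 4 lower doses. A quadratic term tested curvature, and a control term beside the line, over all 20 arrays, tested the offset of the controls. Calls used a threshold of 0.05 on the Benjamini-Hochberg adjusted p over all genes. All adjusted p-values of genes are limma's. The fits were tested on simulated data. The slopes of the GAPDH and beta-actin differences were tested with 100000 permutations of the arrays.

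The comparison, the arrays and the 32 gene lists (643 of 748 entries measured) were chosen with earlier results of these data known. Named genes were the 12 called genes per direction with the largest slope, for each list at most 3 called members or, where none was called, the 1 with the largest slope, and genes called for curvature, offset or over the lower doses, without locus placeholders. This gave 47 genes, and other list members are given as those nearest to the threshold. Lists are described by counts and medians, with no test of the list.

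Alternatives covered the model, the dose scale, normalization, the gene filter, probe sets, eBayes options, array weights, ranks, RNA quality, a replicate block and each array left out. Those without both deviating arrays and over all probe sets were added after the data were seen. Promoter sequences are RefSeq's (GRCr8), and no other coordinates were used.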

Additional observations from a re-analysis of the deposited data

Results flagged for a closer look

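In 5 of the 54 genes shown, the 5 control arrays held a value far from the other 4, by the ratio of its gap to the range of the group. Chance alone flags about 1 in 20 groups, and the treated groups of 3 were too small to be examined this way. The highest control value of Sgpl1 was 7.67, against at most 7.38 in the other controls. That of Osbpl11 was 8.60, against at most 8.45. The lowest control value of Ak4 was 11.19, against at least 11.57. The highest control value of the chemokine Cxcl10 was 6.27, against at most 6.03, and that of the tyrosine aminotransferase Tat was 9.97, against at most 9.38. No control array enters the slopes over the treated livers.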

How the results depend on the processing

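The dose trend called 31 genes, and other settings gave 54 (1 mean per dose), 153 (dose in mg/kg), 79 (replicate block), 101 (quantile normalization), 103 (median centring), 51 (without the lowest 50% of genes), 53 (trend and robust eBayes), 93 (array weights), 143 (all 20 arrays in the fit), 920 (controls on the line) and 1 (without the highest dose). With limma on ranks 0 were called, with 1366 at an unadjusted p under 0.05. Averaging the probe sets of each gene gave 33, the GAPDH covariate 32, leaving out both deviating arrays 30, and all probe sets 43. Leaving out 1 array gave 15 to 68. Over the 4 lower doses 3 genes were called with 1 mean per dose, 6 with the dose in mg/kg, 2 with trend and robust eBayes and 0 on ranks (795 unadjusted), and 1 to 6 with 1 array left out. Curvature gave 3 genes with quantile normalization, 3 with array weights and 0 to 1 with 1 array left out. The control offset gave 1 with the dose in mg/kg and 0 to 0 with 1 array left out. The slope of the GAPDH difference ran from -0.13 to -0.05 and that of beta-actin from -0.06 to -0.0013. None of the 31 slopes turned its sign in these fits of genes, though 26 of the 31 were tested without the lowest 50% of genes and another probe set of Ak4 had a slope of 0.02. Their calls were kept in 31 with the block or quantile normalization, in 23 with the GAPDH covariate and in 17 without both deviating arrays. The slope of Tat, not called (-0.15), was 0.0638 with the controls on the line. The cause was not tested. Replicate numbers were not taken to pair the arrays: deviations of same-numbered arrays correlated at -0.27 to 0.37 (median 0.07, and -0.04 for other pairs), over 0.1 in 14 of 30 pairs. As a hint from the data, replicate 2 lay above replicate 3 on the first principal component at all 5 doses.

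Treated groups of 3 rats limit what the 5 doses can show, and many genes lie near the threshold. The trend assumes equal steps on the log dose scale, which the count with the dose in mg/kg shows to matter.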

Other observations

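Some transcripts turned back at the highest dose. They were noticed among the lowest p-values over the 4 lower doses, and none passed there after adjustment. Klf10, a transcription factor induced by TGF-beta, had treated means of 9.02, 8.77, 8.61 and 8.21 at the 4 lower doses (slope -0.26 ± 0.05, SE, limma adjusted p = 0.117) and 9.62 at 994.6 mg/kg, where the SD was 0.90 (n = 3). Errfi1, a brake on the epidermal growth factor receptor, had means of 13.05, 12.85, 12.51 and 11.83 (slope -0.40 ± 0.07, SE, limma adjusted p = 0.109) and 12.74 at the highest dose. The chemokine Xcl1 ran the other way, with means of 6.15, 6.16, 6.42 and 7.28 (slope 0.37 ± 0.07, SE, limma adjusted p = 0.109) and then 6.42. Over all 5 doses none of the 3 had a called slope (limma adjusted p = 0.91, 0.458 and 0.348).

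Cell cycle and DNA replication genes had a like pattern as a list. Over the 4 lower doses 10 of 30 had a positive slope at an unadjusted p under 0.05, against 3.74% of all genes, with a median of 0.06. Over 5 doses 1 did, against 5.13%, with a median of 0.01 and 18 of 30 slopes positive. When replicate 1 of 994.6 mg/kg was left out, none did by limma, the median was 0.03 and 26 of 30 slopes were positive.

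At the level of probe sets 43 of 31042 were called (0.139%), 27 higher and 16 lower, and 9 of them had no gene name or several here. Probe set 1371076_at, annotated to several genes, had means of 11.71 in control and 12.74, 13.06, 13.72, 13.96 and 14.30 from the lowest to the highest dose, with a slope of 0.40 ± 0.04 (SE, limma adjusted p = 9.87e-05). Probe set 1392316_at, unnamed here, fell by 0.20 per doubling (limma adjusted p = 0.0012).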
